A study of Rattus norvegicus with 6 samples.

Results

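The forkhead box O (FoxO) factors and transcripts that they induce were followed as 10 genes in rat tendon stem/progenitor cells, which reside in tendon and form its cells. The genes were taken by name from the 33300 in the deposited table. They are the factors Foxo1, Foxo3 and Foxo4 and the FoxO-induced genes Irs2, Insr, Pik3ip1, Ccng2, Sesn3, Fbxo32 and Cited2. All 10 were found, each name had a single entry, and all 10 passed the filter on low values (a mean of at least 1 FPKM, which counts fragments relative to gene length and sequencing depth). RNA was sequenced from 3 libraries of cells given N-acetyl-L-cysteine (NAC), a thiol antioxidant, at 500 uM in F12 medium for 7 days, and from 3 libraries of cells kept for 7 days in F12 medium alone (Control). The labels describe both groups as rat tendon cells under tenogenic differentiation and name no strain, age or sex. They do not say whether the replicates are separate cultures or animals, and the p-values then describe the spread among 3 libraries a group, which may be technical. The deposited coordinates given with each gene have a build that the sources used here do not name.

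FoxO proteins are transcription factors at the end of the insulin and growth factor pathway. When phosphatidylinositol 3-kinase (PI3K) activates the kinase AKT, AKT phosphorylates FoxO proteins, 14-3-3 proteins bind them, and they leave the nucleus. When AKT activity is low they enter the nucleus and switch on genes of growth arrest, stress resistance, protein breakdown and insulin signalling. The series title names PI3K/AKT signalling as enhanced by NAC, which is the question these transcripts bear on. RNA levels do not measure the phosphorylation or the place of FoxO proteins.

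The promoter windows in RefSeq (build GRCr8, 250 bases before to 50 bases after each gene's start) matched 7 of the 10 members, all but Foxo3, Irs2 and Fbxo32. The forkhead consensus that FoxO proteins recognise was searched as GTAAACA on both strands, which reads TGTTTAC on the other strand. It was present in the windows of Insr and Pik3ip1 and in none of the other 5, and in 3.78% of all 33469 windows of 300 bases. The stretches of 100 bases that hold the matches are shown on the gene's strand with the match in capitals, because these are the members whose start regions carry the letters. In Insr (chr12:6128854-6128953, minus strand) the match begins 100 bases before the start, and in Pik3ip1 (chr14:82428245-82428344, plus strand) it begins at the start itself.
Insr: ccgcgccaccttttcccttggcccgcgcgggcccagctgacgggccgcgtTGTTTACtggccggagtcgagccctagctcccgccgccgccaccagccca
Pik3ip1: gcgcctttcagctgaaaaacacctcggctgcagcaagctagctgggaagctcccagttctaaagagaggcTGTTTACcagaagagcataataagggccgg
A match is a description of these letters and not a measured binding site. Neither gene passed the test between NAC and Control.

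The libraries held 13624097 to 14941949 reads in NAC and 12487215 to 14079556 reads in Control, recovered from the FPKM values and gene lengths. Control 2 stood apart from the other 5 libraries on the second principal component (-21.8, against -4.23 to 10.3). All 8 tendon markers were at or above 1 FPKM, with a summed level of 13243 to 13928 FPKM in NAC and 8738 to 9151 FPKM in Control. Dcn and Col1a1 made up most of that sum, at means of 5620 and 5453 FPKM in NAC and 4489 and 2731 FPKM in Control. Col1a1, Dcn and Tnc of the tendon list were called higher. The tendon transcription factors Scx (log2 fold change -0.094, limma adjusted p = 0.519) and Mkx (-0.38, limma adjusted p = 0.192) were not called. Tnmd (0.56, limma adjusted p = 0.0909), Thbs4 (0.47, limma adjusted p = 0.0916) and Fmod (0.25, limma adjusted p = 0.160) lay above 0 and were not called either. Of 6 skeletal muscle markers only Acta1 reached a mean of 1 FPKM, and the summed list lay at 4.96 to 5.63 FPKM in NAC and 4.48 to 6.12 FPKM in Control. The endothelial list summed to 0.668 to 0.749 FPKM in NAC and 0.368 to 0.7498 FPKM in Control, and the leukocyte list to 3.77 to 5.18 FPKM in NAC and 4.17 to 7.20 FPKM in Control. The adipocyte list summed to 3.34 to 3.65 FPKM in NAC and 2.42 to 3.48 FPKM in Control, and the chondrocyte list to 12.5 to 13.8 FPKM in NAC and 11.6 to 15.4 FPKM in Control. Pax7, Ptprc, Cd163 and Cdh5, markers of muscle stem cells, leukocytes, macrophages and endothelium, were listed at 0 in all 6 libraries. Other genes of these lists were detected. Cd68 of the leukocyte list averaged 4.76 FPKM, Fabp4 of the adipocyte list 2.58 FPKM, and the chondrocyte genes Sox9, Acan and Comp 9.16, 2.10 and 2.05 FPKM. Comp lay higher in NAC without overlap (0.64, limma adjusted p = 0.0529), while Sox9 (-0.11) and Acan (-0.18) overlapped, and none was called. Pecam1 of the endothelial list had no entry.

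With NAC, 2 of the 10 members fell and none rose in limma's test across 12733 genes (Benjamini-Hochberg adjusted p under 0.05). They were Fbxo32, which encodes the ubiquitin ligase subunit atrogin-1, and Irs2, an adaptor of the insulin receptor. Over all tested genes 2.72% were called lower, 6.08% higher and 8.8% in either direction. An unadjusted p under 0.05 was reached by 3 members, the third being Sesn3, against 26.3% of all tested genes. The 3 NAC values lay wholly apart from the 3 Control values in 4 members, below them in Fbxo32, Irs2 and Insr and above them in Sesn3, against 32.6% of all tested genes. The median log2 fold change was -0.13 over the 10 members, 0.00016 over the 3 factors and -0.19 over the 7 induced genes, beside -0.0063 over all tested genes. Scaling to library totals lowers the median of all tested genes to -0.16 and calls 3722 of the 12733 lower. Relative to that shift the induced genes lay at -0.62 (Fbxo32), -0.31 (Irs2), -0.20 (Cited2), -0.18 (Insr), -0.10 (Pik3ip1), 0.021 (Ccng2) and 0.12 (Sesn3). The factors lay at -0.11 (Foxo1), -0.0054 (Foxo3) and 0.12 (Foxo4).

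**Figure D1:**
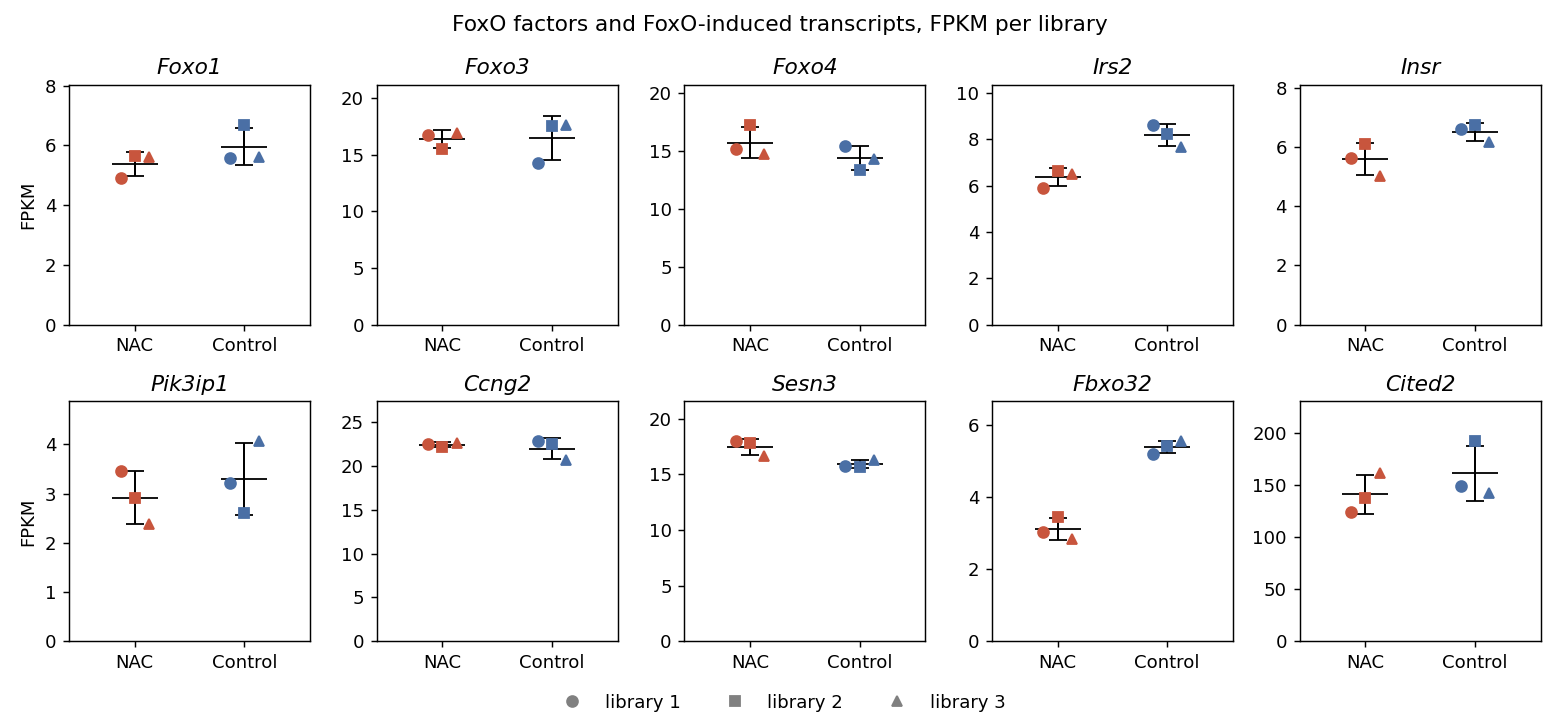
FPKM of each member in each library, with NAC at the left and Control at the right of every panel; symbols mark the library number, the wide line is the group mean and the bars are 1 SD (n = 3). The NAC and Control points are separate in Fbxo32, Irs2, Insr and Sesn3 and overlap in the other 6 genes.

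The levels of the members spanned a wide range, read here as FPKM, which is per length and so can be set between genes. Cited2 was far the most abundant, at 124 to 192 FPKM over the 6 libraries, a mean (151 FPKM) above that of 96.4% of tested genes. Ccng2 came next at 20.7 to 22.8 FPKM. Sesn3 (15.7 to 17.9 FPKM), Foxo3 (14.2 to 17.6 FPKM) and Foxo4 (13.3 to 17.2 FPKM) overlapped, so their order is not set by these libraries. Irs2 (5.91 to 8.61 FPKM), Insr (5.02 to 6.74 FPKM) and Foxo1 (4.92 to 6.69 FPKM) formed a lower group whose ranges also overlapped. Fbxo32 (2.85 to 5.55 FPKM) and Pik3ip1 (2.38 to 4.06 FPKM) were the least abundant, with 67 to 133 reads per library behind Pik3ip1 and 114 to 259 behind Fbxo32. The range of Fbxo32 overlapped those of Pik3ip1, Foxo1 and Insr. No other listed gene overlapped a member's interval except 1 pseudogene at Foxo4, which was listed at 0 in every library.

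The 3 FoxO factors did not pass the test. These paralogs share a forkhead DNA-binding domain and are all targets of AKT. Foxo3 (ENSRNOG00000000299; chromosome 20, 46428124 to 46519144, plus strand) was at 16.8, 15.5 and 17.0 FPKM in NAC and 14.2, 17.5 and 17.6 FPKM in Control. The ranges overlapped, with Control 1 below all other libraries. Its means were 16.4 ± 0.808 FPKM in NAC and 16.5 ± 1.92 FPKM in Control (SD, n = 3 each), and its log2 fold change was 0.00016 ± 0.0884 (SE, limma adjusted p = 0.999). The sign of a value this near 0 turned in 7 of 16 alternative settings.

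Foxo4 (ENSRNOG00000033316; chromosome X, 71155601 to 71162158, plus strand) stood at 15.2, 17.2 and 14.7 FPKM in NAC and 15.4, 13.3 and 14.3 FPKM in Control. NAC 2 was the highest and Control 2 the lowest library, and the other 4 were intermixed. The log2 fold change was 0.12 ± 0.0783 (SE, limma adjusted p = 0.376) and turned to -0.043 with library totals. Foxo1 (ENSRNOG00000013397; chromosome 2, 141451234 to 141527016, plus strand), the factor best known for control of glucose metabolism, had 4.92, 5.63 and 5.61 FPKM in NAC and 5.59, 6.69 and 5.62 FPKM in Control. Control 2 was the highest library and NAC 1 the lowest, while the rest lay within 5.59 to 5.63 FPKM. The log2 fold change of Foxo1 was -0.12 ± 0.0895 (SE, limma adjusted p = 0.433), -0.050 without Control 2 and -0.27 with library totals.

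**Figure D2:**
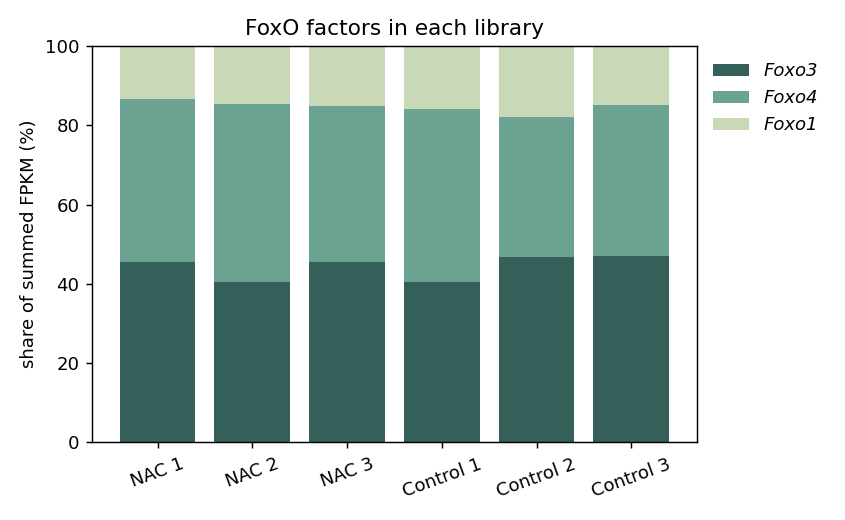
Share of each FoxO factor in the summed FPKM of Foxo1, Foxo3 and Foxo4, in percent, for the 3 NAC and 3 Control libraries. Foxo3 and Foxo4 together make up most of the sum in every library, and Foxo1 stays between 13.3% and 17.8%.

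Taken as shares of their summed FPKM, Foxo3 made up 43.8 ± 2.96% in NAC and 44.7 ± 3.72% in Control, Foxo4 41.8 ± 2.81% in NAC and 39.1 ± 4.23% in Control, and Foxo1 14.4 ± 0.905% in NAC and 16.2 ± 1.47% in Control (SD, n = 3 each). The sum itself was 37.5 ± 0.760 FPKM in NAC and 36.8 ± 1.30 FPKM in Control. The NAC and Control ranges overlapped in all 3 shares and in the sum. Another rat paralog, Foxo6, was near the detection limit, with 1, 7 and 3 reads in the NAC libraries and 0, 1 and 2 reads in the Control libraries. Its mean of 0.092 FPKM lay under the filter, so Foxo6 was not tested.

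Among the genes of insulin and PI3K feedback, Irs2 fell. Irs2 (ENSRNOG00000023509; chromosome 16, 83824430 to 83848684, plus strand) links the insulin and IGF1 receptors to PI3K, and FoxO proteins induce it in liver as a feedback on insulin signalling. It was at 5.91, 6.64 and 6.495 FPKM in NAC and 8.61, 8.22 and 7.67 FPKM in Control. Every NAC value lay below every Control value. Its mean fell by 22.2%, and the change on the log2 scale was -0.32 ± 0.0697 (SE, limma adjusted p = 0.0392). The call is a marginal one, as the adjusted p was 0.0710 to 0.120 on leaving out any single library (log2 fold changes of -0.36 to -0.27), 0.0728 without a filter and 0.0993 with the replicate number as a block. Fewer cells with a transcript and less of it per cell cannot be told apart in these bulk samples, here or in the other members.

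Insr (ENSRNOG00000029986; chromosome 12, 1680957 to 1816414, minus strand), the insulin receptor, had 5.63, 6.09 and 5.02 FPKM in NAC and 6.59, 6.74 and 6.15 FPKM in Control. The groups were separate, with NAC 2 just below Control 3. The log2 fold change was -0.19 ± 0.0802 (SE, limma adjusted p = 0.192), and with library totals Insr was called lower (-0.34, adjusted p = 0.0180, in a range of 0.0180 to 0.380 across settings). That setting called 3722 of all 12733 tested genes lower. Pik3ip1 (ENSRNOG00000018859; chromosome 14, 83560541 to 83572473, plus strand), a membrane protein that restrains PI3K, stood at 3.46, 2.90 and 2.38 FPKM in NAC and 3.22, 2.60 and 4.06 FPKM in Control. It had the widest spread of the members, 18.5% of its mean in NAC and 22.2% in Control. Its log2 fold change was -0.13 ± 0.158 (SE, limma adjusted p = 0.649), with a 95% confidence interval of -0.51 to 0.25, -0.0036 without Control 3, -0.25 without Control 2 and -0.26 with library totals.

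The clearest change was in Fbxo32 (ENSRNOG00000006738; chromosome 7, 98063735 to 98098268, minus strand). Its product atrogin-1 directs proteins to the proteasome in wasting muscle, where FoxO proteins induce it. Fbxo32 was at 3.03, 3.45 and 2.85 FPKM in NAC and 5.21, 5.41 and 5.55 FPKM in Control. The highest NAC library stood well below the lowest Control library. The means were 3.11 ± 0.309 FPKM in NAC and 5.39 ± 0.172 FPKM in Control (SD, n = 3 each), so the mean fell by 42.3%. The change of log2(FPKM + 1), which understates the fall of a low gene, was -0.64 ± 0.0817 (SE, limma adjusted p = 0.00719). With a pseudocount of 0.1 it was -0.78. The adjusted p stayed at 0.00108 to 0.0381 in all 15 alternative settings that tested it, including each library left out in turn. The summed level of the 6 skeletal muscle markers overlapped between the groups. Acta1, a muscle actin and the most abundant of them, averaged 4.36 ± 0.744 FPKM in NAC and 4.20 ± 0.518 FPKM in Control (SD, n = 3 each; limma adjusted p = 0.880), near the level of Fbxo32. Pax7 was listed at 0, and Myog and Ckm had at most 1 read in any library. Myod1 had 6 to 10 reads per library and Mylpf 2 to 11.

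The related muscle ligase Trim63 (MuRF1), which FoxO proteins also induce in wasting muscle, lay under the filter. It had 9, 8 and 8 reads in the NAC libraries and 2, 0 and 3 reads in the Control libraries, the opposite direction to Fbxo32. Without the filter it was called higher (limma adjusted p = 0.0339), on 25 reads in NAC and 5 in Control.

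The cell cycle brake, the stress sensor and the co-regulator did not pass the test. Ccng2 (ENSRNOG00000002089; chromosome 14, 16267573 to 16276068, minus strand) encodes cyclin G2, an atypical cyclin that slows proliferation and a commonly used readout of FoxO activity. It was at 22.6, 22.2 and 22.6 FPKM in NAC and 22.8, 22.5 and 20.7 FPKM in Control. All but Control 3 lay within 22.2 to 22.8 FPKM, and the log2 fold change was 0.029 ± 0.0503 (SE, limma adjusted p = 0.756), with a 95% confidence interval of -0.090 to 0.15. It turned to -0.14 with library totals and to -0.014 without Control 3.

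Sesn3 (ENSRNOG00000008173; chromosome 8, 12823155 to 12872705, plus strand) encodes sestrin 3, a stress-induced protein that limits mTORC1 activity. It had 17.9, 17.8 and 16.7 FPKM in NAC and 15.7, 15.7 and 16.3 FPKM in Control. Every NAC library was above every Control library, with a mean 9.95% higher. The log2 fold change was 0.13 ± 0.0487 (SE, unadjusted p = 0.0344, limma adjusted p = 0.155), and it turned to -0.036 with library totals. Cited2 (ENSRNOG00000056940; chromosome 1, 12823363 to 12825786, plus strand) binds the co-activators CBP and p300 and limits hypoxia-driven transcription. It stood at 124, 138 and 162 FPKM in NAC and 149, 192 and 143 FPKM in Control. The ranges overlapped and Control 2 was the highest library. The log2 fold change was -0.19 ± 0.136 (SE, limma adjusted p = 0.434) and was -0.054 without Control 2, -0.31 with quantile normalization and -0.36 with library totals.

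**Figure D3:**
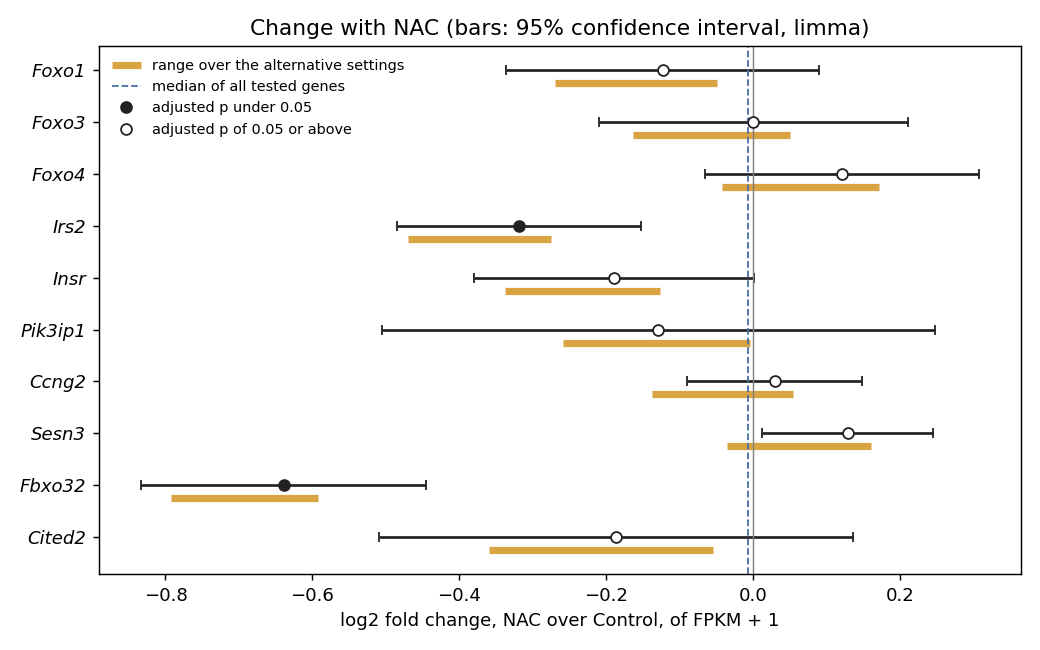
Log2 fold change of FPKM + 1, NAC over Control, for each member: points are the values as deposited, black bars their 95% confidence interval (not adjusted for the number of genes), filled points an adjusted p under 0.05, and orange bars the range over the alternative settings. Fbxo32 (-0.64) and Irs2 (-0.32) are the filled points, and the orange bars of Foxo3, Foxo4, Ccng2 and Sesn3 cross 0.

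The 95% confidence interval of Fbxo32 (-0.83 to -0.44) overlapped only those of Irs2 (-0.48 to -0.15), Pik3ip1 (-0.51 to 0.25) and Cited2 (-0.51 to 0.14) among the other 9 members. For Ccng2 and Sesn3 (0.013 to 0.24) the intervals lay wholly above that of Fbxo32. The difference between members was not tested. Of the 7 induced genes, 5 had a log2 fold change below 0 and 2 above, and of the 3 factors 1 lay below and 2 above.

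Among close relatives of the members, 1 of 6 tested genes fell and none rose, against 2.72% lower and 6.08% higher over all tested genes. The groups did not overlap in 4 of the 6, with NAC higher in 1 and lower in 3, against 32.6% of all tested genes. The gene that fell was Ccng1, cyclin G1, a p53 target. It had 47.2, 45.5 and 50.3 FPKM in NAC and 69.4, 62.7 and 68.5 FPKM in Control. The groups were far apart, with a log2 change of -0.48 ± 0.0566 (SE, limma adjusted p = 0.00508), whereas its paralog Ccng2 was at 0.029. Igf1r, the receptor most like Insr, had 19.2, 19.9 and 18.9 FPKM in NAC and 21.6, 22.9 and 24.8 FPKM in Control, with no overlap (-0.24 ± 0.0597, limma adjusted p = 0.0533). It was called lower with library totals, with a filter at a mean of 5 FPKM and with voom on recovered reads. Irs1, the relative of Irs2, averaged 1.93 ± 0.226 FPKM in NAC and 1.83 ± 0.221 FPKM in Control (0.049, limma adjusted p = 0.830). The other sestrins did not pass the test either. Sesn1 averaged 3.02 ± 0.343 FPKM in NAC and 2.47 ± 0.0910 FPKM in Control, without overlap (0.21, limma adjusted p = 0.226). Sesn2 averaged 10.2 ± 0.466 FPKM in NAC and 11.3 ± 0.165 FPKM in Control, without overlap (-0.13, limma adjusted p = 0.174), and was called lower with library totals (-0.29). In that setting 3722 of all 12733 tested genes were called lower. Relative to the shift of all tested genes there, Sesn2 lay at -0.13 and Igf1r at -0.25. Cited1 varied widely, at 0.751, 2.03 and 1.90 FPKM in NAC and 1.13, 4.81 and 1.27 FPKM in Control (-0.29, limma adjusted p = 0.708), and Cited4 had at most 2 reads in any library.

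**Figure D4:**
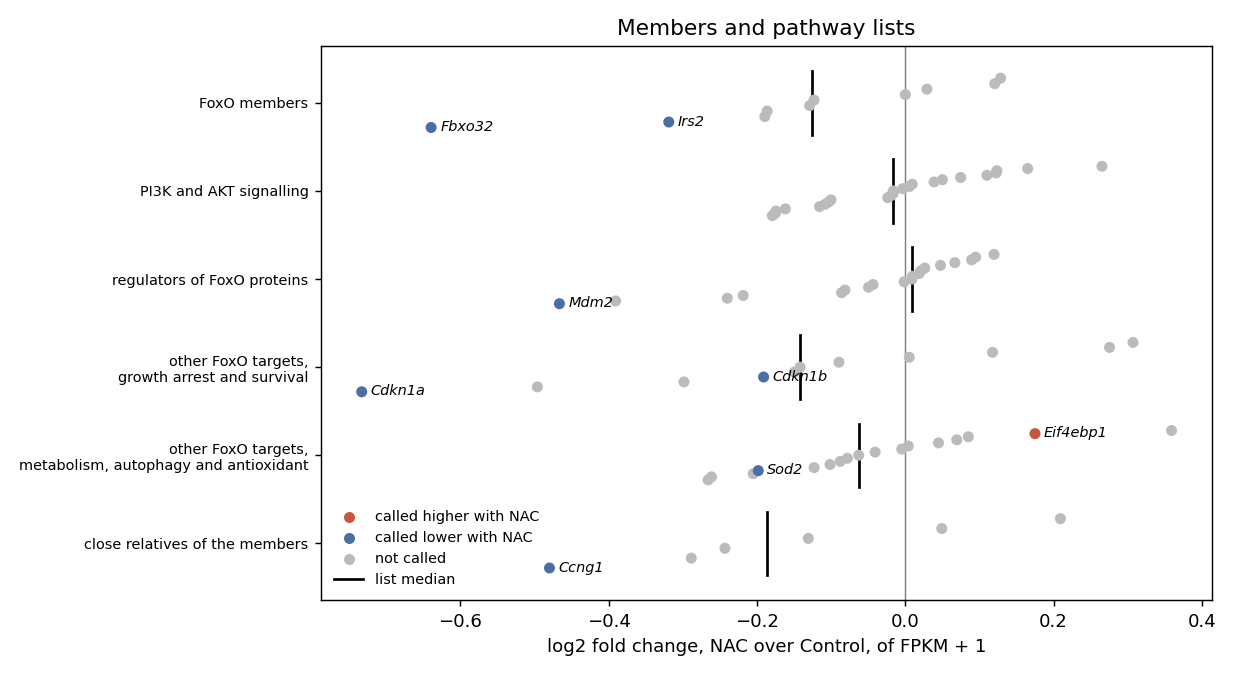
Log2 fold change of FPKM + 1, NAC over Control, of the 10 members and of every tested gene in 5 lists of related genes; each point is a gene, black ticks are list medians, and named points are those with an adjusted p under 0.05. Called genes lie below 0 in all lists but that of metabolism, autophagy and antioxidant targets, where Eif4ebp1 lies at 0.17 and Sod2 at -0.20, and the PI3K and AKT list, which has none.

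Upstream of FoxO, none of 23 tested genes of PI3K and AKT signalling was called, against 8.8% of all tested genes. An unadjusted p under 0.05 was reached by 5 of them, against 26.3% of all tested genes, and the median was -0.016. The groups did not overlap in 9 of the 23, with NAC higher in 5 and lower in 4, against 32.6% of all tested genes. The most abundant of the list were Akt1, the main AKT kinase, and Rheb, the GTPase that activates mTORC1. Akt1 stood at 98.0, 98.2 and 98.1 FPKM in NAC and 86.3, 94.1 and 89.6 FPKM in Control, and Rheb at 73.3, 71.5 and 71.0 FPKM in NAC and 62.4, 68.5 and 61.4 FPKM in Control. In both the NAC libraries were the higher, with log2 fold changes of 0.12 (limma adjusted p = 0.113) and 0.17 (limma adjusted p = 0.0905). Each was called higher without Control 2 (0.16 and 0.21), and each turned to a value below 0 with library totals (-0.049 and -0.0069). Relative to the median of all tested genes in that setting (-0.16), Akt1 lay at 0.11 and Rheb at 0.15.

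Of 19 regulators of FoxO proteins, which include the 14-3-3 proteins, the exporter Xpo1 and the deacetylase Sirt1, 1 fell and none rose, with a median of 0.0092. Over all tested genes 2.72% were called lower and 6.08% higher. The groups did not overlap in 5 of the 19, each with NAC lower, against 32.6% of all tested genes. The gene that fell was Mdm2, a ubiquitin ligase of p53 that also acts on FoxO proteins and is itself a p53 target. Mdm2 was at 25.9, 25.02 and 29.6 FPKM in NAC and 35.99, 38.3 and 37.8 FPKM in Control, without overlap. Its log2 fold change was -0.47 ± 0.0674 (SE, limma adjusted p = 0.0112). The call was lost without NAC 1 (-0.44, adjusted p = 0.0527, in a range of 0.00124 to 0.0527 across settings).

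In the list of other FoxO targets of growth arrest and survival, 2 of 11 tested genes fell and none rose, with a median of -0.14. Over all tested genes 2.72% were called lower and 6.08% higher. Cdkn1a, which encodes the cell cycle inhibitor p21 and is also a main p53 target, was at 69.4, 68.2 and 82.5 FPKM in NAC and 120.4, 129.9 and 116 FPKM in Control. The gap between the groups exceeded the range within either, and the log2 fold change was -0.73 ± 0.0811 (SE, limma adjusted p = 0.00391). Cdkn1b, the p27 inhibitor and a classical FoxO target, averaged 37.8 ± 1.56 FPKM in NAC and 43.3 ± 1.12 FPKM in Control (SD, n = 3 each; -0.19, limma adjusted p = 0.0481). That call ended in 9 of 16 settings (adjusted p of 0.00489 to 0.141 over all), 5 of them with a single library left out: Control 1, Control 3, NAC 1, NAC 2 or NAC 3. The groups did not overlap in 6 of the 11 genes, against 32.6% of all tested genes. Apart from the called genes these were 4, which were named after their values were seen and did not pass the test. Bcl2l11, which encodes the pro-apoptotic protein BIM, averaged 5.64 ± 0.216 FPKM in NAC and 7.19 ± 0.815 FPKM in Control (-0.30, limma adjusted p = 0.0833), and was called lower without Control 2, with voom and with library totals. Gadd45a, a growth arrest and DNA damage gene, averaged 97.7 ± 5.66 FPKM in NAC and 78.9 ± 7.05 FPKM in Control (0.31, limma adjusted p = 0.0514). It was called higher without Control 2 and in 3 other settings. Gadd45b (-0.14) and Mxi1 (-0.15) lay lower in NAC and were called so with library totals, a setting that called 3722 of all 12733 tested genes lower.

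Among other FoxO targets of metabolism, autophagy and antioxidant defence, 1 of 17 tested genes rose and 1 fell. Over all tested genes 6.08% were called higher and 2.72% lower. The median of the 17 genes was -0.063. The entry for G6pc is counted there although the table lists that name more than once and the row used may be another gene; without it the median of 16 genes was -0.052. Sod2, the mitochondrial superoxide dismutase, had 783, 776 and 786 FPKM in NAC and 901, 887 and 903 FPKM in Control. The spread within each group was small beside the gap, and Sod2 fell by 12.8% (log2 fold change -0.20 ± 0.0309, SE, limma adjusted p = 0.0140). The value was -0.37 with library totals and -0.42 with quantile normalization. Its call ended without Control 1, Control 3, NAC 1 or NAC 2 (adjusted p up to 0.0765), without a filter and without a trend. Eif4ebp1, which encodes the translation repressor 4E-BP1, averaged 72.8 ± 1.83 FPKM in NAC and 64.4 ± 0.164 FPKM in Control (0.17, limma adjusted p = 0.0303), a call that ended in 9 of 16 settings, among them each library left out except Control 2, and library totals (0.0029). The groups did not overlap in 9 of the 17 genes, against 32.6% of all tested genes. In 7 of these 9, named after their values were seen, the test was not passed. Of these Atg14 (-0.26), Pdk4 (-0.27), Ulk1 (-0.10) and Atg12 (-0.063) lay lower in NAC. Bnip3 (0.045), Cat (0.085) and Txnip (0.36) lay higher, and Bnip3 and Cat turned to -0.13 and -0.088 with library totals and Bnip3 to -0.060 with quantile normalization. Txnip, a thioredoxin inhibitor, averaged 149 ± 11.8 FPKM in NAC and 116 ± 15.1 FPKM in Control (limma adjusted p = 0.0738), and was called higher with the replicate block, with voom and without Control 1. Atg14, an autophagy factor, averaged 4.05 ± 0.141 FPKM in NAC and 5.07 ± 0.480 FPKM in Control (limma adjusted p = 0.0981), and was called lower with library totals, as were Ulk1, Atg12 and Bnip3. Relative to the shift of all tested genes in that setting, Atg14 lay at -0.24, Ulk1 at -0.11, Atg12 at -0.070, Bnip3 at 0.030 and Cat at 0.070. The liver targets Pck1 and Igfbp1, also named after their values were seen, were listed at 0 in all 6 libraries.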

How the data were processed

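The authors deposited 1 table of FPKM values for 33300 genes with gene lengths. SMARTer mRNA-Seq libraries were sequenced from RNeasy-extracted RNA, per the labels' protocols. Builds GRCm38 and mm10 (mouse) are named per the submitters' processing notes, whereas 32545 identifiers are rat Ensembl; the aligner, counting, strand setting and the build of the coordinates were not given in the sources used here. Columns headed N were taken as Control by elimination. In each library FPKM times length came in whole multiples of a fixed step (100% of values, tolerance 0.01), which gave the reads; the total the authors divided by was 0.916 ± 0.00812 of these in NAC and 1.03 ± 0.0122 in Control (SD, n = 3 each). Replicates differed beyond sampling noise, with a chi-square of 3.46 to 8.71 per degree of freedom.

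Log2(FPKM + 1) was tested with limma 3.58.1 in R 4.3.3 (lmFit, eBayes with trend, two-sided, group alone) over the 12733 genes whose mean reached 1 FPKM, with Benjamini-Hochberg adjustment over all of them; fold changes on this scale understate those of low genes. The test was checked on simulated data (12733 genes, NAC against Control), where of 50 genes each it called 8 at a fold change of 1.25, 25 at 1.5, 37 at 2 and 44 at 4. Of the unchanged genes it called 5. Far fewer genes were changed there than the 1120 called in the data, so these shares need not hold for the data. Of 87 entries in 5 gene lists, 3 were matched through an older name in a RefSeq table and 2 had no entry. Members and lists were chosen with earlier results of these data known. Named were all members, their close relatives, and from each other list up to 4 called genes or, with none called, the 2 most abundant. Genes of the target lists named beyond this rule are marked as named after their values were seen. Tables and figures used Python 3.11.15, numpy 2.4.6, pandas 2.3.3 and matplotlib 3.10.9.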

Additional observations from a re-analysis of the deposited data

How the results depend on the processing

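Alternatives were library totals, quantile normalization, median-of-ratios rescaling, a pseudocount of 0.1, the filter dropped or raised to 5 FPKM, eBayes without trend or robust, the replicate block, limma voom on recovered reads, and each library left out. Voom took the totals the authors divided by as library sizes, so it shares the deposited scaling. Same-numbered libraries did not deviate together (correlations 0.063, 0.059 and -0.050), so numbers were not taken as pairs; with the replicate block 1 member was called lower, as with no filter, at a mean of at least 5 FPKM (Fbxo32 and Pik3ip1 not tested there) and with any 1 library left out (1 each, against 2). No setting called a member higher. Over all genes 774 were called higher and 346 lower, 467 and 3722 with library totals, 466 and 110 with the replicate block, 264 to 859 and 51 to 347 with 1 library left out, and 207, 206 and 529 lower with no filter, no trend and voom. Calls were 69.1% higher as deposited, 11.1% with library totals and 58.2% with quantile normalization.

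With library totals, 9 of 23 genes of PI3K and AKT signalling and 12 of 19 regulators were called lower. So were 7 of 11 growth arrest targets, 10 of 17 metabolism targets and 3 of 6 relatives, and 0 metabolism targets were called higher. Over all tested genes 3722 of 12733 were called lower in that setting, where the median was -0.16. Leaving out 1 library gave 0 to 2 higher and 0 to 1 lower for PI3K and AKT, 0 to 1 lower for regulators, 0 to 2 higher and 1 to 3 lower for growth arrest, and 0 to 1 either way for metabolism. Over all tested genes, quantile normalization called 567 higher and 408 lower, and voom 1035 and 529. No trend called 549 and 206, robust eBayes 798 and 353, and the replicate block 466 and 110. Without a filter 549 and 207 of 19944 genes were called, and at a mean of at least 5 FPKM 780 and 408 of 8783. Quantile normalization gave 2 regulators, 1 growth arrest and 2 metabolism targets lower and 0 metabolism targets higher; voom 2 regulators and 2 relatives lower, 1 growth arrest and 2 metabolism targets higher; no filter 1 growth arrest and 0 metabolism targets lower and 1 relative higher; no trend 1 growth arrest target lower and 0 metabolism targets either way; the replicate block 1 growth arrest target lower; a mean of at least 5 FPKM 1 growth arrest target higher and 2 relatives lower; robust eBayes 1 growth arrest target higher.

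Signs turned for Foxo3 with library totals (-0.16), median-of-ratios (-0.0026), quantile normalization (-0.0027), voom (-0.00026) and 1 library left out (-0.095 to 0.050). With library totals they turned for Foxo4 (-0.043), Ccng2 (-0.14), Sesn3 (-0.036), Irs1 (-0.064), Akt1 (-0.049), Rheb (-0.0069), Bnip3 (-0.13) and Cat (-0.088), and with quantile normalization for Bnip3 (-0.060). The median of all tested genes was -0.16 with library totals. Relative to that shift Foxo4 lay at 0.12, Ccng2 at 0.021, Sesn3 at 0.12 and Irs1 at 0.095. Akt1 lay at 0.11, Rheb at 0.15, Bnip3 at 0.030, Cat at 0.070 and Foxo3 at -0.0054. With 1 library left out signs turned for Ccng2 (-0.014 to 0.055), Irs1 (-0.0061 to 0.11) and Cited1 (-0.54 to 0.18). Causes were not tested beyond the shift with library totals and the fewer genes or libraries some settings use. Pik3ip1 rests on the fewest reads of the members.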
